A study of Rattus norvegicus with 24 samples.

Results

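Epcam, Adh1c and Myh6 are 3 genes whose intensity was far higher in the neurointermediate lobe of the rat pituitary than in the hypothalamus. They were chosen for that difference and are 3 of the 14217 genes that the array annotation pairs with a probe set. Every probe set annotated to 1 of these genes alone was taken, which gave 5 probe sets: 1 for Epcam (1388199_at), 2 for Adh1c (1368021_at and 1378260_at) and 2 for Myh6 (1368093_at and 1387049_at). Because the pituitary contrast chose the genes, their values in it are given as a description and without a test.

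Epcam encodes the epithelial cell adhesion molecule, a transmembrane glycoprotein that joins epithelial cells to each other and whose cleaved tail can act in the nucleus. Adh1c encodes a class I alcohol dehydrogenase, a cytosolic zinc enzyme best known from liver that oxidises ethanol and also retinol. Myh6 encodes the alpha heavy chain of cardiac myosin, the motor of the thick filament of heart muscle. The neurointermediate lobe holds the endings of vasopressin and oxytocin neurons with their glial pituicytes, and beside them the intermediate lobe, an epithelium of melanotrophs that make melanocortin peptides from Pomc.

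Messenger RNA was measured on 24 Affymetrix rat arrays, each hybridised with RNA pooled from 5 male rats. The spontaneously hypertensive rat (SHR) gave 5 pools of neurointermediate lobe (NIL), 5 of hypothalamic paraventricular nucleus (PVN), 4 of supraoptic nucleus (SON) and 5 of rostral ventrolateral medulla (RVLM, a brainstem region that drives sympathetic nerves). The Wistar-Kyoto rat (WKY), its normotensive control strain, gave 5 pools of RVLM. No agent or surgery is labelled for any group, and the age was 10 to 13 weeks, or 10 to 12 for NIL array 2. NIL was measured in SHR rats only, so a strain difference in the pituitary was not analysed here. The labels do not say whether pools of different structures came from the same rats.

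Defining genes of each structure were checked first. Pomc, the melanocortin precursor, averaged 868 ± 254 (SD, n = 5) in NIL, and no array of another structure exceeded 16.2. Avp, the vasopressin gene, averaged 4453 ± 522 in PVN (n = 5) and 5056 ± 495 in SON (n = 4), against 17.3 ± 3.45 in SHR RVLM (n = 5). Pnmt, which makes adrenaline, averaged 192 ± 50.8 in SHR RVLM and 178 ± 39.1 in WKY RVLM (SD, n = 5 each), and no array elsewhere exceeded 16.5. Array medians ranged from 35.9 to 46.5 in intensity. The array labelled PVN replicate 3 (PVN array 3) had the lowest mean Spearman correlation with its own group, 0.912. Precision is limited by how many pools each group holds.

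The promoters of the 3 genes are shown because the genes share a pattern over the arrays but lie on different chromosomes. The sequences come from RefSeq (build GRCr8) and run 5′ to 3′ from 250 bases before to 50 bases after the annotated start, for all 3 genes out of 3. Epcam lies on the minus strand (chr6:12649629-12649928), Adh1c on the plus strand (chr2:229470453-229470752) and Myh6 on the minus strand (chr15:32411648-32411947). The Myh6 start in this table lies inside the annotated span of the gene and not at its outer end. Capitals mark matches to CANNTG (the E-box) and TAATCC (the core bound by Pitx factors), searched in both strands. In Adh1c a pair of CANNTG matches overlap.
Epcam: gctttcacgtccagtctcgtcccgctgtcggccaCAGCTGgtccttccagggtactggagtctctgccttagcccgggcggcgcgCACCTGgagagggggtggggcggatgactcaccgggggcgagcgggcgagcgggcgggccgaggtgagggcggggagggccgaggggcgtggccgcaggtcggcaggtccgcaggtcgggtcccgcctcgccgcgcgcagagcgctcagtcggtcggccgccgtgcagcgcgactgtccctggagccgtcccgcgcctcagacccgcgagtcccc
Adh1c: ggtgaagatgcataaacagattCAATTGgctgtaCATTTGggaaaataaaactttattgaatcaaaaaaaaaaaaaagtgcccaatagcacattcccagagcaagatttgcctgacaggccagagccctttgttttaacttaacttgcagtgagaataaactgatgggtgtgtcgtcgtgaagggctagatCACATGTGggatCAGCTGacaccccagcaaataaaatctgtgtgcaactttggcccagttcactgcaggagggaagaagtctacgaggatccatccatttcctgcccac
Myh6: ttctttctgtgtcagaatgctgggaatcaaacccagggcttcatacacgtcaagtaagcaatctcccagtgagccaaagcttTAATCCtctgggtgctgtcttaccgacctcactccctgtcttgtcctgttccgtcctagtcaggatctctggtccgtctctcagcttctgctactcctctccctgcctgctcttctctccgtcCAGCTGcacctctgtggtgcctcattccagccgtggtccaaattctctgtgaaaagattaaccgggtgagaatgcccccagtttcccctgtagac

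The promoters differed in base composition. GC content was 75.7% for Epcam, 43.3% for Adh1c and 52.7% for Myh6, and the median over 33469 promoters was 51.7%. Epcam held 40 CG dinucleotides, Adh1c 3 and Myh6 7. CANNTG occurred in all 3 promoters and in 72.1% of all promoters, and TAATCC occurred in Myh6 alone of the 3 and in 7.17% of all promoters. The letters TCACACC (the core bound by Tbx19, 3.83% of all promoters), AGGTCA (a nuclear receptor element, 16.2%), TATAAA (the TATA box, 14.2%) and TGACGTCA (the cyclic AMP response element, 1.83%) were in none of the 3 windows in either strand. A match or its absence in these windows is a description of letters only.

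Epcam had an intensity of 1279.6, 1067, 1357, 1298 and 1214 in the 5 NIL arrays. It had 11.1, 15.2, 4.44, 12.6 and 18.2 in PVN and 10.9, 12.6, 12.7 and 19.7 in SON. In RVLM it had 1.78, 7.16, 7.70, 5.42 and 5.23 in SHR, against 6.23, 6.06, 1.87, 6.88 and 3.41 in WKY. Every NIL array was thus far above every other array, while the other groups sat at the dim end of the array. On the RVLM arrays Epcam was no brighter than the 16.6th percentile of all probe sets, and on every NIL array it was above the 98th.

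The difference of Epcam between NIL and the mean of PVN and SON was 6.63 on the log2 scale (SE 0.309), which is a ratio of 98.8. Between NIL and SHR RVLM it was 7.89 (SE 0.349). It ranked 2 of 10598 genes in the first of these contrasts, behind Gh1 (growth hormone, 6.99), and 3 in the second. The 2 contrasts share the NIL arrays. In bulk tissue, fewer cells of a type and less RNA per cell cannot be told apart. With 16 or 64 added to every intensity before the log, the hypothalamic difference of Epcam was 5.43 or 4.07. The groups ran, from high to low mean, NIL (1243 ± 111), SON (13.97 ± 3.93), PVN (12.3 ± 5.16), SHR RVLM (5.46 ± 2.32) and WKY RVLM (4.89 ± 2.15, SD), with overlapping arrays between each group and the next after NIL except that every SON array was above every RVLM array.

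Adh1c, on its brighter probe set 1368021_at, had 1817, 1847, 2326, 2086 and 1908 in NIL. It had 17.3, 6.88, 48.3, 26.1 and 23.8 in PVN and 77.9, 41.2, 53.8 and 7.08 in SON. In RVLM it had 16.7, 6.83, 3.14, 5.46 and 7.07 in SHR, against 4.64, 15.9, 14.1, 11.01 and 10.4 in WKY. NIL again stood clear of all other arrays, and the hypothalamic arrays scattered over a wider range than those of Epcam. The highest PVN array was array 3, and 3 of the 4 SON arrays were above every RVLM array, with SON array 4 as the exception.

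The difference of Adh1c on this probe set was 6.23 (SE 0.462) between NIL and the mean of PVN and SON, a ratio of 74.8, and 8.12 (SE 0.523) between NIL and SHR RVLM. It ranked 4 and 2 of 10598 genes. Group means were 1997 ± 212 in NIL, 45.0 ± 29.5 in SON, 24.5 ± 15.3 in PVN, 11.2 ± 4.31 in WKY RVLM and 7.84 ± 5.21 in SHR RVLM (SD). SON and PVN overlapped, as did PVN and each RVLM group, and the 2 RVLM groups.

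The other Adh1c probe set, 1378260_at, had 47.6, 29.0, 95.1, 61.2 and 57.3 in NIL. On it PVN had 4.33, 9.76, 6.82, 4.45 and 4.00, and SON had 2.77, 2.39, 3.12 and 14.6. SHR RVLM had 3.53, 2.23, 8.33, 12.9 and 9.52, against 15.2, 3.80, 6.45, 6.04 and 1.25 in WKY RVLM. NIL was the highest group here too and overlapped with no other, while the remaining groups overlapped with each other. Its differences were 3.47 against the mean of PVN and SON and 3.07 against SHR RVLM, smaller on the log2 scale than those of 1368021_at. Array 3 was the highest NIL array on both Adh1c probe sets.

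Myh6 was high in NIL on 1 probe set and not on the other. On 1368093_at it had 1279.9, 858, 967, 818 and 911 in NIL. It had 12.0, 13.3, 7.26, 30.3 and 21.0 in PVN and 10.6, 19.5, 14.4 and 12.6 in SON. In RVLM it had 12.2, 21.8, 12.7, 14.3 and 19.2 in SHR, against 8.88, 18.6, 16.1, 10.3 and 4.10 in WKY. The NIL arrays did not overlap with any other group, and all 4 other groups overlapped. The difference was 6.02 (SE 0.234) between NIL and the mean of PVN and SON, a ratio of 65.0, and 5.84 (SE 0.265) between NIL and SHR RVLM, with ranks of 5 and 7. Group means were 967 ± 184 in NIL, 16.8 ± 9.03 in PVN, 16.03 ± 4.23 in SHR RVLM, 14.3 ± 3.81 in SON and 11.6 ± 5.80 in WKY RVLM (SD).

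On 1387049_at Myh6 had 7.16, 15.9, 15.1, 2.28 and 16.5 in NIL. It had 8.66, 6.85, 11.8, 3.81 and 13.4 in PVN and 8.44, 1.00, 1.36 and 4.50 in SON. In RVLM it had 3.34, 1.94, 1.45, 6.31 and 8.39 in SHR, against 5.02, 12.6, 9.31, 1.43 and 8.57 in WKY. All groups overlapped on this probe set, and none of its arrays reached the median intensity of an array. The probe sets of Myh6 therefore disagree, and which transcript each one measures is not given in the sources used here.

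Further probe sets annotated to Myh6 together with Myh7, its neighbour that encodes the beta heavy chain, were examined because of this disagreement. The genes lie 2861 bases apart on chromosome 15 of GRCr8. On 1398248_s_at the NIL arrays had 268, 205, 210.1, 129 and 174, against 8.30 to 31.4 in PVN, 3.64 to 18.5 in SON and 1.80 to 3.53 in SHR RVLM. On 1396165_at they had 33.5 to 43.1, against 4.25 to 22.6 in PVN and 2.16 to 17.7 in SON. Both shared probe sets were thus higher in every NIL array than in any PVN or SON array. The probe sets of Myh7 alone were not. On 1386993_at NIL had 10.9 to 33.9, against 33.3 to 58.2 in PVN and 14.3 to 23.98 in SON. On 1367928_at NIL had 1.64 to 11.5, against 8.24 to 12.2 in PVN and 3.15 to 11.9 in SON. In SHR RVLM, however, 1386993_at had 1.86 to 4.34, under every NIL array. There 1367928_at had 0.98 to 6.52, which overlapped with NIL.

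**Figure D1:**
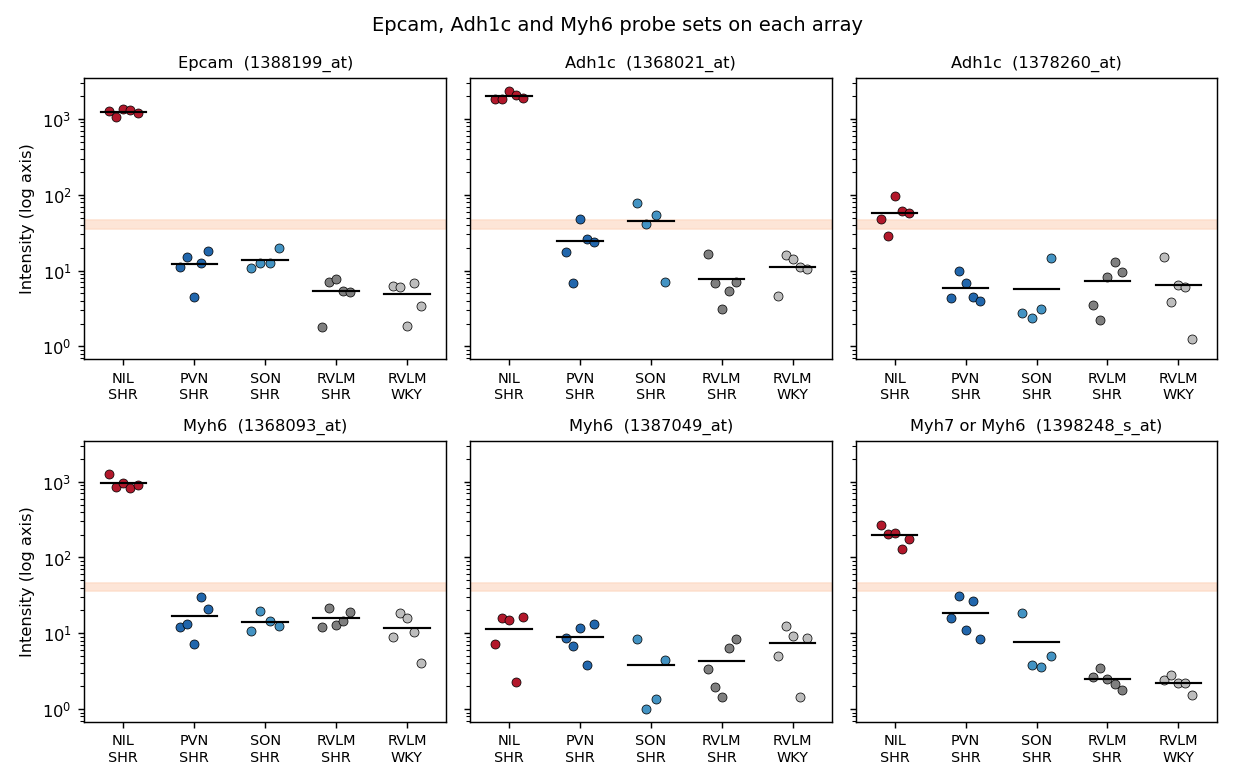
Intensity (log axis) of the 5 probe sets and of 1 probe set shared by Myh6 and Myh7 on each of the 24 arrays; points are pools, black bars are group means and the shaded band spans the median intensities of the arrays, 35.9 to 46.5. NIL stands apart on every panel but 1387049_at, where it spans 2.28 to 16.5 and overlaps with the other groups.

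The 5 NIL pools differed more in hormone genes of the anterior lobe, the tissue next to the one dissected, than in the 3 genes. Gh1 had 5471, 6068, 2957, 2494 and 693 in NIL pools 1 to 5, Prl (prolactin) had 2586, 3677, 331, 523 and 190.3, and Tshb (the thyrotropin beta chain) had 298, 2577, 233, 334 and 52.9. The highest pool exceeded the lowest 8.75-fold for Gh1, 19.3-fold for Prl and 48.8-fold for Tshb, but 2.22-fold for Cga and 2.74-fold for Lhb, which encode the chains of luteinising hormone. For Epcam that ratio was 1.27, for Adh1c 1.28 and for Myh6 1.57 on their brighter probe sets. Among melanotroph genes it was 2.03 for Pomc, 1.5 for Pcsk2 (a convertase that cleaves the Pomc product) and 1.53 for Tbx19 (a factor that drives Pomc).

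Pools 1 and 2 had the highest Gh1 and Prl. Without them, a choice made after the data had been seen, the difference between NIL and the mean of PVN and SON was 6.66 for Epcam, 6.28 for Adh1c and 5.91 for Myh6, close to the values over all 5 pools. Pool 5, with the lowest Gh1, Prl and Tshb, had 1214 for Epcam, 1908 for Adh1c and 911 for Myh6, inside the range of the other pools for each gene. Over 13 anterior lobe marker genes the summed intensity was 4299 to 18099 in NIL, 841 to 1162 in PVN and 671 to 783 in SON. In pools 3 to 5 this anterior lobe sum was 7603, 7334 and 4299, still far above PVN and SON. Leaving out pools 1 and 2 thus did not take out the anterior lobe genes, and it cannot set the 3 genes apart from them. Over 10 melanotroph markers the summed intensity was 11131 to 13183 in NIL, 6780.2 to 7122 in PVN and 7556 to 8624 in SON. This sum is not particular to melanotrophs, since it was also large in PVN and SON, where Pomc averaged 2.57 and 1.72. Pomc itself and the anterior lobe sum were both far higher in NIL than in PVN or SON. The part of melanotrophs or of anterior lobe cells in the levels of the 3 genes was not tested.

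**Figure D2:**
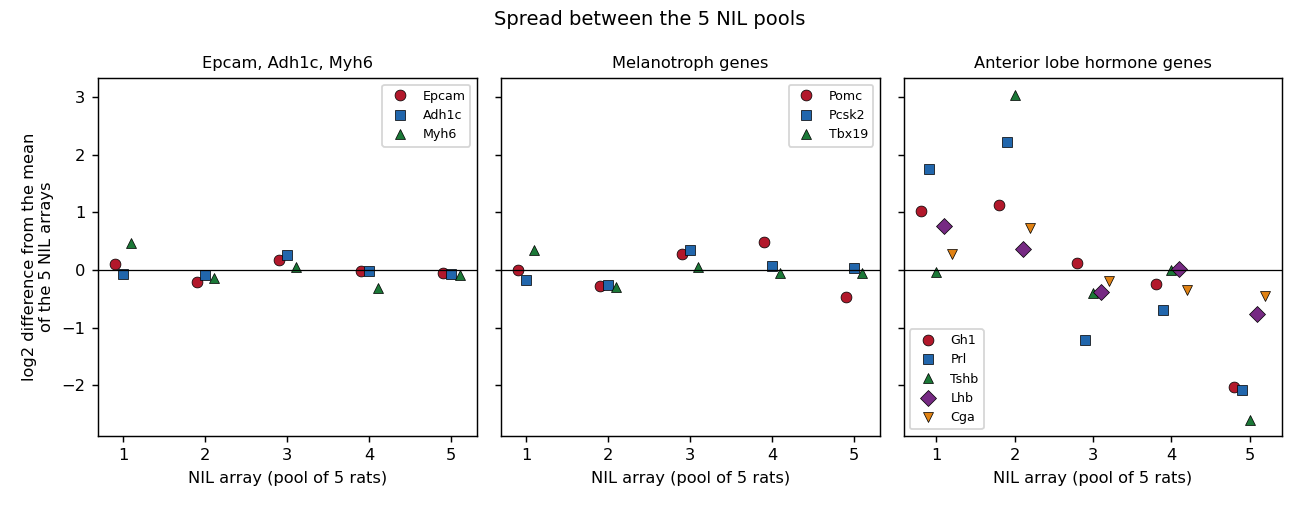
log2 difference of each NIL array from the mean of the 5 NIL arrays, for the 3 genes, for melanotroph genes and for anterior lobe hormone genes; each point is 1 pool of 5 rats. Epcam, Adh1c and Myh6 stay between -0.31 and 0.47, whereas Tshb spans -2.60 to 3.04.

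Among themselves the 3 genes differed in how steady they were. The SD of the log2 values over the NIL pools was 0.143 for Epcam, 0.150 for Adh1c and 0.296 for Myh6. Myh6 was the more variable: its SD was above that of 98.6% of 1482 probe sets of similar brightness in NIL, whose median SD was 0.127. The share was 67.6% of 1011 probe sets for Epcam and 75.3% of 485 for Adh1c. Pool 1 was the highest pool for Myh6, pool 3 for Epcam and Adh1c. Pool 1 was also the highest for the shared probe set 1398248_s_at, with 268, and pool 4 was the lowest on both, with 818 and 129.

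The strain comparison asked whether the genes differed between SHR and WKY rats in the RVLM, and it used none of the arrays that chose them. None of the 5 probe sets passed the filter on low values, so each was tested by an exact permutation test over the 5 pools against 5 (two-sided, 252 splits, smallest possible p = 0.00794). By this exact test the difference was 0.12 for Epcam (p = 0.810), -0.65 for Adh1c on 1368021_at (p = 0.198), 0.27 on 1378260_at (p = 0.714), 0.58 for Myh6 on 1368093_at (p = 0.183) and -0.80 on 1387049_at (p = 0.302). None of these unadjusted p-values fell under 0.05, and the strains overlapped on all 5 probe sets. As background, limma called 1.58% of 18625 probe sets, at a Benjamini-Hochberg adjusted p under 0.05. At these intensities, with every RVLM value at or under 21.8, a strain difference was not detected, which does not show that there is none.

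The comparison of PVN with SON used arrays whose mean, but not whose difference, entered the choice of the genes. In the fit over the 19 SHR arrays 3 of the 5 probe sets passed the filter, and they did so only through their NIL values, for which they were chosen. None was called by limma, which called 14.7% of 18625 probe sets. The difference was -0.26 for Epcam (SE 0.371, adjusted p = 0.690), -0.67 for Adh1c on 1368021_at (SE 0.554, adjusted p = 0.454) and 0.13 for Myh6 on 1368093_at (SE 0.281, adjusted p = 0.802). With only the PVN and SON arrays in the fit these 3 were under the filter too, and the exact permutation test over 5 pools against 4 gave unadjusted p-values of 0.667 for Epcam, 0.429 for Adh1c and 0.754 for Myh6. The dim probe sets gave 0.43 for Adh1c (exact permutation test, 126 splits, p = 0.492) and 1.63 for Myh6 (p = 0.0714), both unadjusted. The groups overlapped on all 5 probe sets. The sign for Epcam turned without PVN array 3 (0.055, adjusted p = 0.928) and that for Myh6 turned without PVN array 4 (-0.08, adjusted p = 0.868). Without SON array 4, whose Adh1c was far below the other SON arrays on 1368021_at, the difference there was -1.42 (adjusted p = 0.0506).

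Among genes that work beside Epcam, 15 of the 21 that could be tested were higher in NIL. Of 32 junction and adhesion genes of epithelia on the array, 21 passed the filter, and limma called 15 of these higher and 0 lower in NIL than in the mean of PVN and SON, with a median difference of 0.77. At an unadjusted p under 0.05 the counts were also 15 and 0. The filter used all 19 SHR arrays, NIL among them, so a gene dim elsewhere could pass through its NIL values. For such a gene, in this list and those below, the p-value and its place in the counts are not free of that selection. Among the genes named below, Dsp, Pkp2, Esrp1, Rab25 and Stra6 averaged under the lowest array median, 35.9, in PVN, SON and SHR RVLM. This limit may therefore hold for their p-values. Over all 10598 genes 30.9% were called higher and 28.1% lower, and the median difference was 0.03. Without a filter, 21 of the 32 genes (65.6%) were higher in every NIL array than in any PVN or SON array, 0 were lower and 11 overlapped, where the shares over 14217 genes were 16% and 13.1%. These counts do not make the list independent of the choice of Epcam, which was made on the same arrays.

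Krt18, Dsp and Krt8 had the 3 largest called rises of this list, and keratins build the filaments of simple epithelia. Krt18 averaged 708 ± 85.0 in NIL, 105 ± 36.2 in PVN (41.0 on array 3 and 116 to 128 on the others) and 18.6 ± 2.85 in SON, a rise of 4.03 (SE 0.210, adjusted p = 2.79e-13). Its partner Krt8 rose by 2.30 (SE 0.251, adjusted p = 6.49e-08), with 422 ± 24.3 in NIL, 213 ± 87.7 in PVN and 38.9 ± 12.2 in SON. The PVN values of Krt8 were 60.7 on array 3 and 216 to 272 on the others, so its rise over PVN was smaller than that over SON. Dsp, the desmosomal plaque protein desmoplakin, rose by 3.92 (SE 0.229, adjusted p = 1.87e-12) and Pkp2, another plaque protein, by 1.96 (SE 0.192, adjusted p = 1.24e-08). Cdh1, or E-cadherin, and Cldn7, a claudin that binds EpCAM, were under the filter and are given by array. Cdh1 had 135, 67.1, 149, 150.4 and 92.1 in NIL, against 0.78, 0.84, 55.0, 1.90 and 1.15 in PVN and 49.5, 32.3, 32.4 and 4.18 in SON. Cldn7 had 71.2 to 108 in NIL, against 0.97 to 11.4 in PVN and 0.94 to 3.44 in SON. For both genes every NIL array was above every PVN and SON array, and the PVN value of 55.0 for Cdh1 came from array 3.

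Regulators of the epithelial state and partners that bind or cleave EpCAM were tested likewise. Of 16 on the array, 11 passed the filter, and limma called 8 of them higher and 0 lower in NIL, with a median of 0.98. Over all genes 30.9% were called higher and 28.1% lower. The counts at an unadjusted p under 0.05 were also 8 and 0. Esrp1, an epithelial splicing factor, rose by 3.13 (SE 0.189, adjusted p = 3.45e-12), with 271 ± 15.9 in NIL, 32.4 ± 12.8 in PVN and 30.4 ± 5.04 in SON. Rab25, a trafficking GTPase of epithelia, rose by 2.10 (SE 0.247, adjusted p = 2.10e-07), Rbm47, an RNA-binding protein, by 1.69 (SE 0.167, adjusted p = 1.40e-08) and Spint1, a protease inhibitor of epithelial surfaces, by 1.25 (SE 0.152, adjusted p = 3.38e-07). Without a filter, 10 of the 16 were higher in every NIL array and 1, Grhl3, was lower, against 16% and 13.1% of all genes. Grhl3, a grainyhead transcription factor named after its values had been seen, averaged 4.13 in NIL, 32.4 in PVN and 25.6 in SON.

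Enzymes related to Adh1c were called about as often as all genes. Of 22 alcohol and aldehyde dehydrogenases and related enzymes, 16 passed the filter, and limma called 5 higher and 4 lower in NIL, with a median of 0.05, where 30.9% of all genes were called higher and 28.1% lower, with a median of 0.03. Aldh1a1, which oxidises retinal to retinoic acid, rose by 1.66 (SE 0.232, adjusted p = 2.38e-06), with 413 ± 45.3 in NIL, 113 ± 68.9 in PVN (232 on array 3 and 63.4 to 109 on the others) and 167 ± 44.1 in SON. Against SHR RVLM, with 497 ± 55.1, its difference was -0.36 (adjusted p = 0.235). Aldh1a2, with the same activity, had a lower mean in NIL (43.5 ± 12.2) than in PVN (195 ± 324) and SON (307 ± 88.6), a difference of -1.96 (SE 0.463, adjusted p = 0.00105), although its PVN values other than array 3 were 43.7 to 55.2.

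Of the other classes of alcohol dehydrogenase, Adh5 had similar levels in the 3 groups, while Adh4 and Adh7 were dim in all 3. Adh5, the widespread class III enzyme, differed by -0.04 (SE 0.151, adjusted p = 0.821), with 352 ± 25.7 in NIL, 353 ± 57.7 in PVN and 363 ± 24.8 in SON. Adh4 had 16 ± 8.46 in NIL, 13.1 ± 8.41 in PVN and 13.2 ± 4.22 in SON, and Adh7 averaged 0.702 in NIL, 0.621 in PVN and 1.10 in SON, both under the filter. The astrocyte enzyme Aldh1l1 fell by 4.37 (SE 0.297, adjusted p = 2.63e-11) and Aldh5a1, which degrades the aldehyde of the transmitter GABA, by 0.71 (SE 0.138, adjusted p = 0.000155). Without a filter, 2 of the 22 were higher in every NIL array, Aldh1a1 and Aldh3a1, and 3 were lower, against 16% and 13.1% of all genes. Aldh3a1, an aldehyde dehydrogenase named after its values had been seen, had 147 ± 35.6 in NIL, 18.9 ± 3.52 in PVN and 18.9 ± 10.6 in SON.

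Of 26 genes on the array that carry, bind or sense retinoids, 15 passed the filter, and limma called 3 higher and 3 lower in NIL, with a median of -0.02, against 30.9% and 28.1% of all genes. Without a filter, 3 of the 26 were higher in every NIL array, 1 was lower and 22 overlapped, against 16% and 13.1% of all genes. Without PVN array 3 limma called 5 higher and 5 lower. Stra6, the membrane receptor that takes up retinol, rose by 3.61 (SE 0.204, adjusted p = 1.10e-12), with 381 ± 37.4 in NIL, 32.9 ± 9.64 in PVN and 30.0 ± 6.78 in SON. Dhrs3, which reduces retinal to retinol, rose by 0.70 (SE 0.126, adjusted p = 5.76e-05), and Crabp1, a carrier of retinoic acid, fell by 1.25 (SE 0.163, adjusted p = 9.21e-07).

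Few genes of the sarcomere were higher together with Myh6. Of 38 sarcomere genes on the array other than Myh6, 11 passed the filter, and limma called 0 higher and 4 lower in NIL, with a median of -0.39. Over all genes 30.9% were called higher and 28.1% lower. The counts at an unadjusted p under 0.05 were also 0 and 4. Myh1, a heavy chain of fast skeletal muscle, fell by 1.47 (SE 0.132, adjusted p = 3.21e-09) and Acta1, skeletal actin, by 1.38 (SE 0.137, adjusted p = 1.41e-08). Without PVN array 3, 2 were called higher. Tnnt2, the cardiac troponin T, had 11.5 ± 8.96 in NIL, 91.7 ± 136 in PVN and 136 ± 40.5 in SON, where the PVN mean rested on array 3, with 335 against 25.8 to 34.8 on the others. Without a filter, 2 of the 38 (5.26%) were higher in every NIL array than in any PVN or SON array and 3 were lower, against 16% and 13.1% over all genes. The 2, named after their values had been seen, were Myl2, the ventricular regulatory light chain, with 52.1 ± 12.0 in NIL, 5.96 ± 1.82 in PVN and 7.24 ± 2.62 in SON, and Mybpc1, a myosin-binding protein of skeletal muscle, with 25.9 ± 16.9 in NIL, 1.16 ± 0.463 in PVN and 1.17 ± 0.606 in SON.

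Of 27 regulators, hormones and calcium handling genes of heart muscle on the array, 13 passed the filter, and limma called 1 higher and 8 lower in NIL, with a median of -0.41, where 30.9% of all genes were called higher and 28.1% lower. Without a filter, 1 of the 27 was higher in every NIL array than in any PVN or SON array, 3 were lower and 23 overlapped, against 16% higher and 13.1% lower over all genes. Mef2a, a transcription factor of muscle and neurons, rose by 0.55 (SE 0.119, adjusted p = 0.000451). Ryr2, the cardiac calcium release channel, fell by 2.17 (SE 0.108, adjusted p = 1.22e-13) and Casq2, its calcium store protein, by 1.42 (SE 0.210, adjusted p = 5.57e-06). Gata4, a cardiac transcription factor, had 19.8 ± 6.30 in NIL, 24.9 ± 10.1 in PVN and 29.5 ± 5.10 in SON, and Nppa, which encodes the atrial hormone, had 5.83 ± 3.70 in NIL, 65.3 ± 24.3 in PVN and 21.4 ± 3.48 in SON. The summed intensity of the 38 sarcomere genes was 1940.2 to 2145 in NIL, 3319 to 3945 in PVN and 4458 to 4834 in SON. Of 12 nonmuscle and smooth muscle myosins and contractile genes that passed the filter, 3 were called higher and 2 lower, against 30.9% and 28.1% of all genes. Without a filter, 3 of 15 were higher in every NIL array, 0 were lower and 12 overlapped, against 16% and 13.1% of all genes. Myh9, the nonmuscle heavy chain, rose by 1.51 (SE 0.130, adjusted p = 1.56e-09) and Myl12a, a light chain that pairs with it, by 0.55 (SE 0.124, adjusted p = 0.000711).

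**Figure D3:**
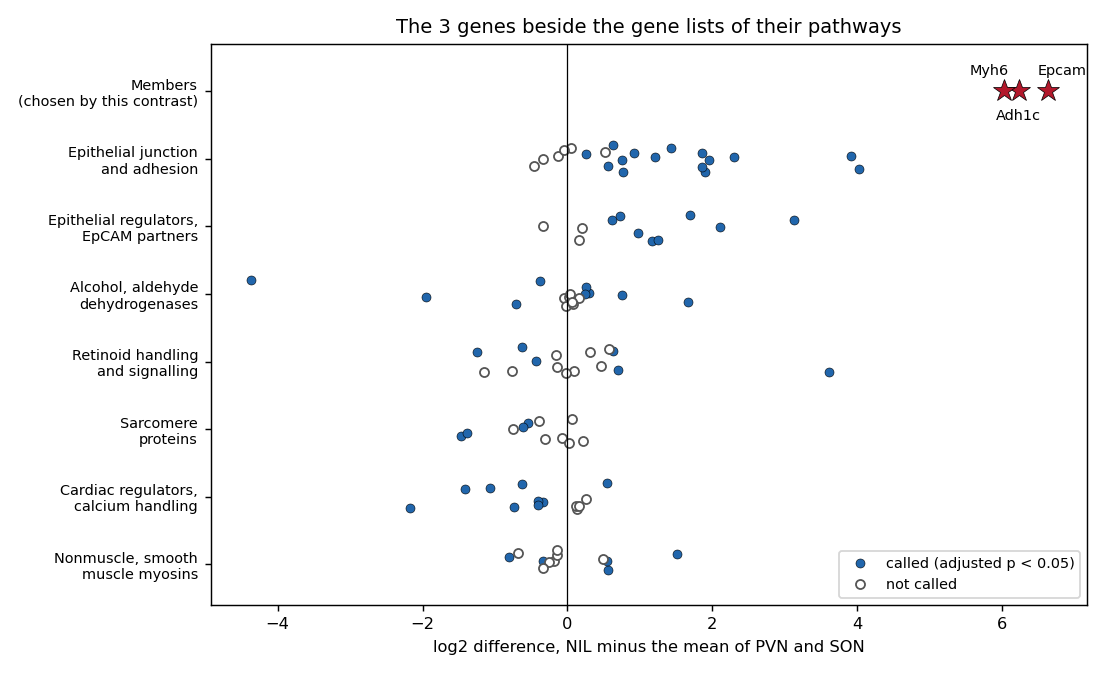
log2 difference between NIL and the mean of PVN and SON for the brighter probe set of each of the 3 genes (stars) and for genes of 7 related lists that passed the filter (circles, filled where limma called them). The epithelial lists lie mostly right of 0, with 15 of 21 and 8 of 11 genes called higher, and the sarcomere list has 0 of 11. Over all genes 30.9% were called higher.

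The same lists were set against the RVLM, with the same NIL arrays. Over all genes 37.7% were called higher and 30.1% lower, with a median difference of 0.10. Of the junction genes that passed the filter 15 of 21 were called higher and 2 lower, and of the epithelial regulators 9 of 11 and 0. Of the dehydrogenases 8 of 16 were called higher and 2 lower, and of the retinoid genes 6 of 15 and 4. Of the sarcomere genes 0 of 11 were called higher and 5 lower. Of the cardiac genes 4 of 13 were called higher and 6 lower, and of the myosin and contractile genes 5 of 12 and 4. Within the RVLM, between SHR and WKY, limma called 1.41% of 10415 genes. It called none of the 14 junction genes, 9 epithelial regulators, 16 dehydrogenases and 15 retinoid genes that passed that fit's filter, and 1 of 14 sarcomere genes, Tnnc2 (the fast skeletal troponin C, named after its values had been seen), which was lower in SHR by -0.71 (SE 0.160, adjusted p = 0.0295). At an unadjusted p under 0.05, limma had 1 junction gene, 0 regulators, 1 dehydrogenase and 3 retinoid genes lower in SHR, and 1 retinoid gene higher. The sarcomere list had 2 genes higher and 1 lower in SHR at that threshold. Of 14 cardiac genes in that fit limma called 0, and at the unadjusted threshold 1 was higher and 0 lower. Of 11 myosin and contractile genes it called 1, lower in SHR, and at the unadjusted threshold 0 were higher and 2 lower.

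The genes whose pattern over the 24 arrays was nearest to each of the 3 were found by the root mean square difference of centred log2 values, over 14216 genes. For Epcam these were Gh1 (0.99), Myh6 (1.00), Cga (1.10), Arhgap8 (1.13) and Krtcap3 (1.19). Cga encodes the alpha chain shared by the pituitary glycoprotein hormones, and Krtcap3 a keratinocyte-associated membrane protein. For Adh1c they were Cga (1.203), Esm1 (1.25), Plau (1.27), Myh6 (1.30) and Epcam (1.32). Esm1 encodes a secreted proteoglycan and Plau the urokinase plasminogen activator. For Myh6 they were Rax (0.64), Arhgap8 (0.67), F5 (0.79), Krtcap3 (0.82) and Rab27a (0.95). Rax is a transcription factor of the ventral hypothalamus and of pituicytes, F5 a coagulation factor and Rab27a a GTPase of secretory granules.

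The 3 genes were chosen for their high NIL values, which also enter these distances, so their nearness to each other is fixed in part by that choice. Epcam was number 9 and Adh1c number 46 in the order for Myh6, and Adh1c was number 11 in the order for Epcam. With 16 added to every intensity only 2, 2 and 1 of the 5 nearest genes of Epcam, Adh1c and Myh6 stayed among the 5, whereas without PVN array 3 it was 4, 5 and 5. Rax had 408 ± 51.7 in NIL, 10.97 ± 5.45 in PVN and 5.85 ± 2.35 in SON. It does not stand for the whole list of pituicyte markers. Of 11 genes of that list that passed the filter, limma called 5 higher and 3 lower in NIL, with a median of -0.29. Over all genes 30.9% were called higher and 28.1% lower. The summed intensity of the list was 5902 to 7193 in NIL, 6998 to 11219 in PVN and 10724 to 13373 in SON. Pitx1, a pituitary transcription factor, had 175 ± 27.9 in NIL, 20.9 ± 13.3 in PVN and 15.6 ± 10.8 in SON.

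**Figure D4:**
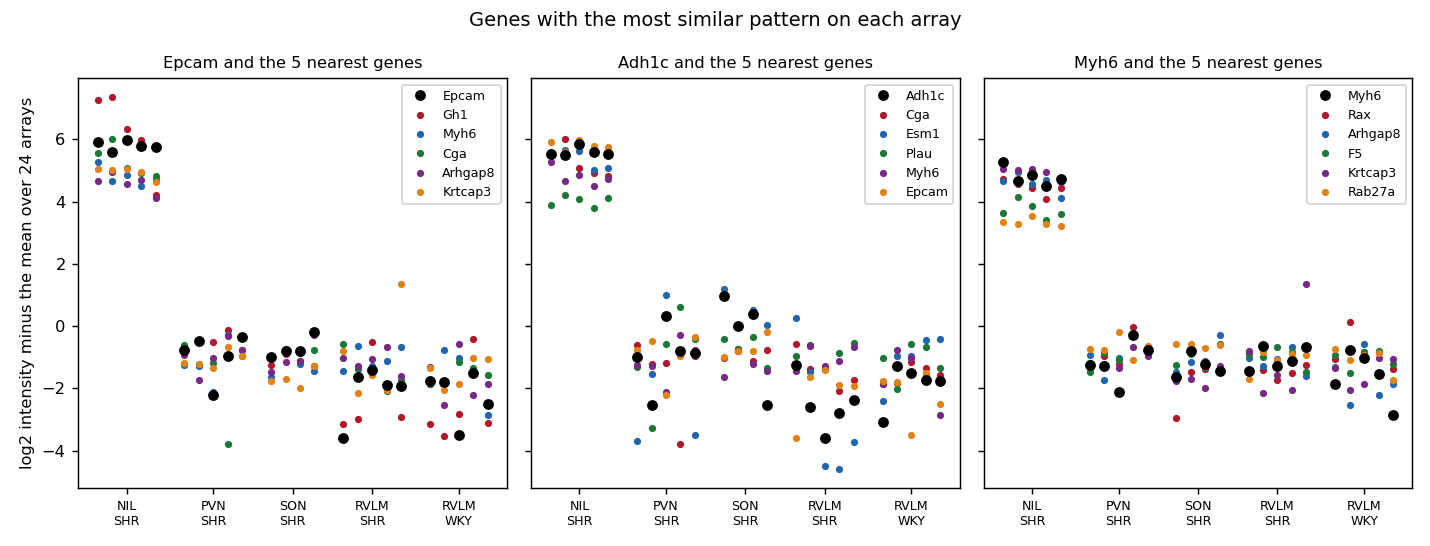
log2 intensity of Epcam, Adh1c and Myh6 (black) and of their 5 nearest genes (colours), each minus its own mean over the 24 arrays, with arrays grouped by structure and strain. The NIL arrays lie above all others in each panel, and the nearest gene is at a distance of 0.99 for Epcam, 1.203 for Adh1c and 0.64 for Myh6.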

How the data were processed

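The authors deposited 1 table of linear probe set intensity for 24 arrays. The submitters' processing notes name the Affymetrix software GCOS 1.2, whose scaling settings and presence calls were not used here. Per the labels' protocols, RNA was purified with QIAzol and RNeasy. Arrays were grouped by title, and p-values set differences of group means against the spread between pools. Of 31099 probe sets, 57 controls were left out.

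Intensities were log2-transformed and arrays were shifted so that all had 1 common median. Probe sets with a mean log2 value above the 40th percentile over the arrays of a fit were tested with lmFit and eBayes (intensity trend) of limma 3.58.1 in R 4.3.3, with Benjamini-Hochberg adjustment over all of them. A gene stands for its brightest probe set, and means and SDs are of the deposited intensity. Members under the filter were tested by exact permutation. The fits were tested on simulated data.

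Members and gene lists (16 lists, 259 of 295 genes matched) were chosen with earlier results of these data known. Named genes were the members, a short list of hallmark genes, per list at most 4 rises and 2 falls among called genes whose NIL arrays overlapped with no PVN or SON array (only those of the lists described here are printed), and the 5 nearest genes. Some hallmark genes, among them Myh7b, Actc1, Pax7 and Lhx3, were not analysed here. Alternatives were other scaling, pseudocounts and filters, no intensity trend, other arrays in the fit, gene means, a replicate block and each array left out.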

Additional observations from a re-analysis of the deposited data

Results flagged for a closer look

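Of 195 sets of 4 or 5 arrays of 1 group examined for the genes named here, 20 (10.3%) held 1 array that Dixon's test set apart. For normally distributed values chance sets apart about 1 in 20. The test was run on linear intensities, for which that rate may not hold. Sets that share an array are not independent, and 10 of the 20 fell on PVN array 3. For the members 2 of 25 sets (8%) were apart. Adh1c 1368021_at had 16.7 in SHR RVLM array 1, against 3.14 to 7.07 in the other SHR RVLM arrays, and Adh1c 1378260_at had 14.6 in SON array 4, against 2.39 to 3.12. The probe set 1398248_s_at shared by Myh7 and Myh6 had 18.5 in SON array 1, against 3.64 to 4.95.

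PVN array 3 was high for Cdh1 (55.0, against 0.78 to 1.90 in the other PVN arrays), Aldh1a1 (232, against 63.4 to 109), Aldh1a2 (775, against 43.7 to 55.2), Aldh1l1 (406, against 113 to 149), Tnnt2 (335, against 25.8 to 34.8), Myh9 (173, against 93.2 to 114) and Myl12a (703, against 468 to 517). It was low for Krt18 (41.0, against 116 to 128), Krt8 (60.7, against 216 to 272) and Tbx19 (15.6, against 70.9 to 91.7).

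In NIL, Tshb had 2577 in array 2, against 52.9 to 334 in the others, Adh4 had 31.1 in array 4, against 11.3 to 13.6, and Krtcap3 had 71.7 in array 5, against 91.0 to 94.1. In SON, Stra6 had 40.1 in array 3, against 25.3 to 27.7, Rab27a had 47.3 in array 3, against 50.4 to 50.8, Rax had 2.35 in array 1, against 6.68 to 7.22, and Mybpc1 had 2.07 in array 4, against 0.776 to 0.972.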

How the results depend on the processing

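The sizes of the pituitary differences depended on the pseudocount, since the genes were dim elsewhere. With 16 added, the difference from PVN and SON was 5.43 for Epcam, 1.71 for Adh1c 1378260_at and 4.95 for Myh6 1368093_at, and that from RVLM was 5.81, 1.56 and 4.87 for the same probe sets and 6.35 for Adh1c 1368021_at. With 64 added, the differences from PVN and SON were 4.07 for Epcam, 4.41 and 0.78 for Adh1c, and 3.67 for Myh6, and those from RVLM were 4.19, 4.80, 0.72 and 3.64, and 0.10 for Myh6 1387049_at. No alternative brought an adjusted p for a member under 0.05. Leaving out 1 array gave PVN minus SON an exact p of 0.0357 for 2 dim probe sets, Adh1c 1378260_at without SON array 4 and Myh6 1387049_at without SON array 1. Signs of uncalled differences turned when 1 array was left out: the strain difference ranged from -0.21 to 0.50 for Epcam (-0.05 without SHR RVLM array 3) and from -0.20 to 0.67 for Adh1c 1378260_at (-0.01 without SHR RVLM array 4), and PVN minus SON from -0.411 to 0.055 for Epcam and from -0.082 to 0.375 for Myh6 1368093_at. PVN minus SON ranged from 0.17 to 1.03 for Adh1c 1378260_at and from 1.16 to 2.19 for Myh6 1387049_at.

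Genes called for PVN minus SON numbered 1711, 849 with only those arrays in the fit, and 1007 (without SON array 3) to 2440 (without PVN array 3) with 1 array left out. For the lists in NIL, no filter gave 24 junction genes, 5 retinoid, 2 sarcomere and 2 cardiac genes higher and 1 epithelial regulator lower. A filter at the 60th percentile gave 9 junction genes and 3 regulators higher and 2 sarcomere genes lower, a pseudocount of 64 gave 1 junction gene and 4 myosin genes lower, and gene means gave 1 myosin gene lower. With 1 array left out the counts ran from 0 to 1 for junction genes and for regulators lower, 3 to 5 for dehydrogenases higher, 3 to 5 for retinoid genes higher, 2 to 5 for retinoid genes lower and 0 to 2 for sarcomere genes higher. Without NIL arrays 1 and 2 there were 2 dehydrogenases higher. The causes were not tested.

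Replicate numbers were not used to pair the pools in the main fits. Same-numbered PVN and SON arrays correlated at 0.08 to 0.17 in their deviations, over 0.1 in 2 of 4 pairs. Their mean was 0.108, against -0.029 for arrays with other numbers. The labels do not say whether these pools shared rats, so a pairing of PVN with SON was not settled. With the number as a replicate block, PVN minus SON was -0.32 for Epcam, -0.69 for Adh1c and 0.07 for Myh6, and 1534 genes were called.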
